A study of Mus musculus with 31 samples.

Results

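The 5 genes Bid, Gadl1, Chrna4, Tuba4a and Mfsd14b were those, among the 15 named probes with the largest spread between mouse strains, whose lowest liver value lay in strain 14 of the BXD panel. They were selected on measured values, the SD and the position of the minimum, so both are given as a description with no test. They are 5 of the 15095 genes named by the platform annotation, and their probes were 7 of the 21765 measured on every array: 1 probe each for Bid, Gadl1 and Mfsd14b, and 2 each for Chrna4 and Tuba4a. The probe that met this choice is called the main probe of its gene (probe 10675 for Bid, 10818 for Gadl1, 1351 for Chrna4, 14083 for Tuba4a and 18498 for Mfsd14b), and the others are the second probes (13577 for Chrna4 and 16449 for Tuba4a).

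Liver RNA of 31 BXD strains, recombinant inbred mice bred from C57BL/6J and DBA/2J, was set against C57BL/6J liver RNA on 2-colour arrays, with 1 array per strain. Each strain was represented by a pool of 3 males, 8 weeks old, and the reference on every array was 1 pool of 9 male C57BL/6J mice. The strains form a single group, dyes were not exchanged, and no strain was measured again, so a value of 1 strain carries the error of its pool and its array. Values are the authors' deposited log ratios, taken here as log2 with the strain on top, which is the likely direction, because no source used here states the log base or the direction. A value of -1 is then a level at 0.5 times that of the reference.

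Bid is a BH3-only protein of the BCL2 family: death receptors on the hepatocyte surface lead to its cleavage, and the fragment moves to mitochondria and starts the release of cytochrome c. Gadl1 encodes a decarboxylase that makes beta-alanine, and also hypotaurine, from acidic amino acids, and in mice it is best known from muscle and olfactory bulb. Chrna4 encodes a subunit of neuronal nicotinic acetylcholine receptors, Tuba4a an alpha-tubulin isotype that is abundant in platelets, and Mfsd14b an orphan member of the major facilitator superfamily of membrane transporters. The genes lie on different chromosomes, Tuba4a on chromosome 1, Chrna4 on 2, Bid on 6, Gadl1 on 9 and Mfsd14b on 13.

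The promoters of Gadl1, Tuba4a and Mfsd14b are shown because the main probes of these 3 genes varied together most closely across strains. Each runs from 250 bases before to 50 bases after the gene's start, from RefSeq on build GRCm38.p6, and is printed 5′ to 3′ on the gene's strand, with the GC box letters GGGCGG or CCGCCC in capitals.
Gadl1, chr9:115909205-115909504, plus strand: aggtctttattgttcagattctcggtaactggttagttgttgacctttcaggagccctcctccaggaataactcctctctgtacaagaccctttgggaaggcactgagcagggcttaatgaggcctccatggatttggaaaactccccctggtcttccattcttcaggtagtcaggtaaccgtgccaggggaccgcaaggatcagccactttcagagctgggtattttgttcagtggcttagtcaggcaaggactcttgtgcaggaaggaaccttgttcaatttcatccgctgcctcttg
Tuba4a, chr1:75219245-75219544, minus strand: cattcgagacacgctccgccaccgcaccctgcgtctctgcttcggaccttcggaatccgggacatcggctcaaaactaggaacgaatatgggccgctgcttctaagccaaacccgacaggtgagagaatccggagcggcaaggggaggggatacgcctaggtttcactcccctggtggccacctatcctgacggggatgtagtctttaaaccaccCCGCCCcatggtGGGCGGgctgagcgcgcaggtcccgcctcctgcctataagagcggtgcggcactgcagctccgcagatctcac
Mfsd14b, chr13:65112933-65113232, minus strand: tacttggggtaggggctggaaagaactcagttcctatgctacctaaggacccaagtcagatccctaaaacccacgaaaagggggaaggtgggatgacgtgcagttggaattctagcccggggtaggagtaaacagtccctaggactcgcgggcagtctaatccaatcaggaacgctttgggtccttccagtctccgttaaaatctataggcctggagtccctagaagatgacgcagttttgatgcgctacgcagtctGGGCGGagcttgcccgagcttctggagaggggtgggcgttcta
The searches covered both strands, and no motif is contained in another. Gadl1 had no GC box, Mfsd14b had 1 and Tuba4a 2, and the Bid and Chrna4 promoters, not printed, had 3 each. The share of all 32851 promoters of this length with at least 1 GC box was 35.7%. The CCAAT box (CCAAT or ATTGG), held by 37.4% of all promoters, was found in Mfsd14b and in no other of the 5, and the TATA box letters TATAAA or TTTATA, held by 13.6%, in none of them. GC content was 50% in Gadl1, 54% in Mfsd14b, 62% in Tuba4a, 63.3% in Bid and 74.3% in Chrna4, against a median of 52.7% over all promoters. A match is a run of letters in this window and says nothing of a factor's binding.

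Before the values, the arrays themselves need a description. Every array had the same distribution, with a median of -0.001, an SD of 0.51 and limits of -3.84 and 3.65. Sorted values differed between arrays by at most 0.00026, so each value, at a limit or elsewhere, follows from the probe's rank on its array. The levels and gaps given below are therefore sizes on this shared scale. The arrays of strains 23, 28, 40 and 42 stood apart: their median Pearson r with the other arrays lay between 0.06 and 0.37. Strain 38 followed at 0.57, strain 14 had 0.75, and the other 25 strains had at least 0.67. Probe identifiers that are multiples of 8 had a median panel mean of -0.58, and none of the 7 probes has such an identifier.

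Strain 14 held the lowest value of the 31 strains for the 5 main probes and for neither second probe, as the choice of members requires for the main ones. Over all probes the share lowest in strain 14 was 2.16%, below the 3.23% that each strain would have if all were lowest equally often, and strain 14 was 14th of the strains by this number.

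The main probe of Tuba4a read -3.84 in strain 14, the lower limit of the array. Across the other strains its lowest value was -2.88 in strain 19 and its highest 0.30 in strain 28, with a median of -1.34 over the 31 strains. Strain 14 lay 2.55 below the median of the other strains, which is 5.87 times lower with the limit taken as its value, and this was the most negative difference of all probes. The gap to the next strain, 0.97, was the widest such gap of the 5 genes.

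Gadl1 read -2.94 in strain 14. The other strains ran from -2.58 in strain 13 to 1.21 in strain 38, and the median over the 31 strains was -0.61. The strain 14 difference of -2.35 ranked 2nd of all probes and corresponds to a level 5.11 times lower. Strains 13, 5 and 19, at -2.58, -2.25 and -2.13, lay closest to strain 14.

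Bid read -3.02 in strain 14, with strain 15 next at -2.77 and strain 28 highest at 0.96. Its median was -0.81 over the 31 strains, and the strain 14 difference of -2.33, a level 5.02 times lower, ranked 4th of all probes. Among gaps away from the ends of the range, called inner gaps, that of Bid was the widest. For Bid, 12 strains lay between -3.02 and -1.79, none in the next 0.85, and 19 strains between -0.93 and 0.96. That gap took up 21.5% of the range, where the widest inner gap of the other main probes took up between 7.97% and 10.9% of theirs. Wider gaps at an end were left out, such as the 0.97 above strain 14 for Tuba4a and that between 2.62 and 3.65 for Chrna4. Strain 14 was therefore 1 of 12 strains with low Bid and lay only 0.25 under the next.

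Mfsd14b read -2.54 in strain 14, against -2.16 in strain 13 and -1.78 in strain 19, the next strains. Its median over the 31 strains was -0.97 and its highest value was 1.29 in strain 38. The difference of -1.68, a level 3.21 times lower, ranked 11th of all probes.

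Chrna4 was of another kind. Its main probe read -0.77 in strain 14 and -0.74 in strain 18, so the 2 strains differed by 0.03, and the strain 14 difference of -0.64, a level 1.56 times lower, ranked 285th of all probes. The spread that brought Chrna4 into the choice lay at the top: it read 3.65, the upper limit of the array, in strains 23 and 40, 2.62 in strain 42 and 1.70 in strain 20, against a median of -0.17. Of the 31 strains, 18 were below 0 and none was below -1.

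**Figure D1:**
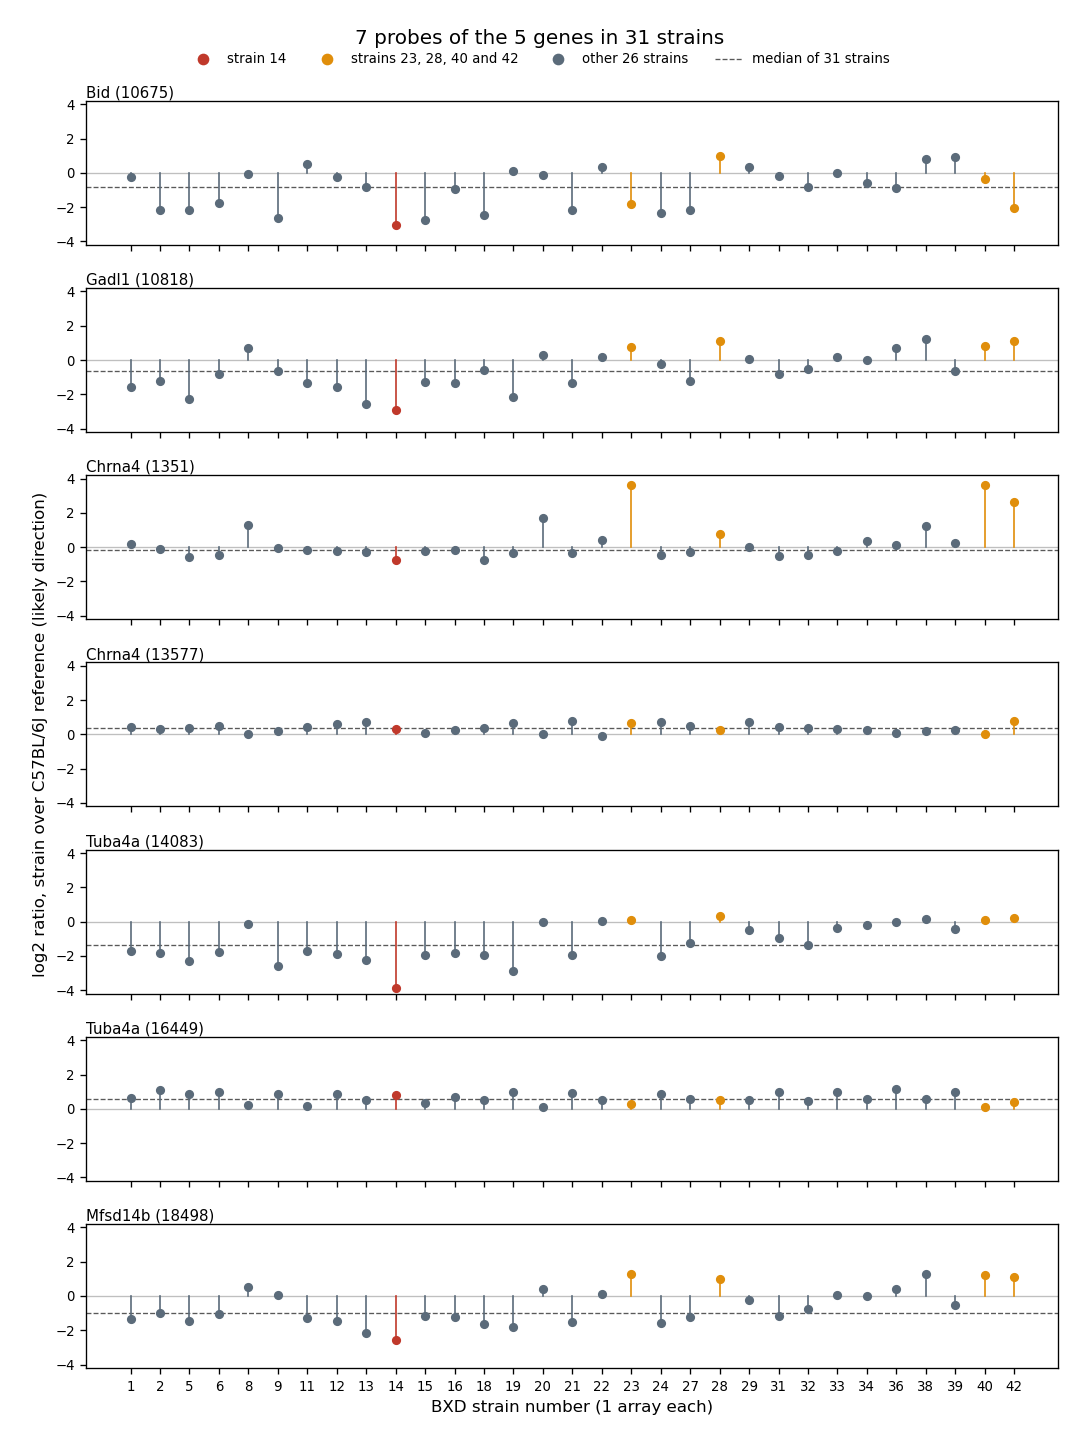
Log2 ratio of strain over reference (vertical axis) of the 7 probes in each of the 31 strains (horizontal axis), 1 array each, with strain 14 in red and the 4 strains whose arrays stood apart in orange. Strain 14 is lowest for the 5 main probes, by 0.97 for Tuba4a and by 0.03 for Chrna4, and the second probes of Chrna4 and Tuba4a stay within -0.08 and 1.15.

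Across all probes the difference of strain 14 from the median of the other strains had a median of 0.003 and an SD of 0.26. It reached -1 or less for 82 probes, 0.377% of those measured, and these included 4 of the 5 main probes, all but that of Chrna4. In the other direction, 61 probes lay at least 1 above. Of the 29 probes within 3 identifiers of a main probe, the median strain 14 difference was -0.02 and 1 reached -1, the probe of the lysine methyltransferase gene Eef1akmt2 near Gadl1, at -1.11. Across the 26 strains other than 14, 23, 28, 40 and 42, r of these neighbours with their main probe had a median of 0.11 and reached 0.5 for 5 of them. These were Eef1akmt2 (0.89) and Gpkow (0.69) near Gadl1, Klk1b14-ps (0.74) and Syt17 (0.50) near Chrna4 and Alkbh8 (0.52) near Mfsd14b, named after their values were seen, and the part of the place on the array in these r was not tested.

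**Figure D2:**
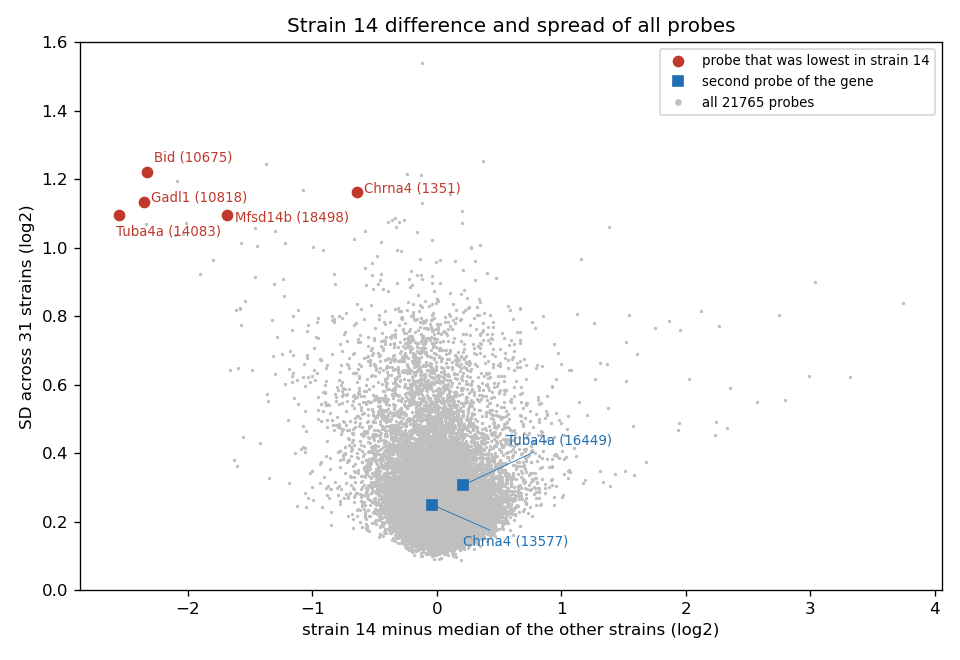
Difference of strain 14 from the median of the other strains (horizontal axis, log2) and SD across the 31 strains (vertical axis, log2) of all 21765 probes in grey, with the 5 main probes as red circles and the 2 second probes as blue squares. Tuba4a, Gadl1 and Bid lie at -2.55, -2.35 and -2.33, and Chrna4 at -0.64 has its spread from other strains.

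The SD across the 31 strains was 1.22 for Bid, 1.16 for the main probe of Chrna4, 1.13 for Gadl1 and 1.10 each for the main probe of Tuba4a and for Mfsd14b, against a median of 0.24 over all probes. At the edge of the choice, Mfsd14b was the last of the 15 named probes that was lowest in strain 14, and the next such probe by SD was that of Scel, which encodes sciellin of the cornified envelope, at 1.04. Without strains 14, 23, 28, 40 and 42 the SD over 26 strains was 1.17 for Bid, 0.96 for Gadl1, 0.92 for Tuba4a and 0.88 for Mfsd14b. That of Chrna4 was 0.60, which ranked 343rd among all probes over these strains, against 9th over the 31 strains. Without strain 14 alone, Chrna4 kept an SD of 1.16, and without the 4 strains whose arrays stood apart it had 0.61. The spread of Chrna4 thus rested largely on strains 23, 40 and 42 of these, at 3.65, 3.65 and 2.62, while strain 28 read 0.79. Bid, at rank 6 over the 26 strains, kept most of its own spread.

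The high ends of Gadl1, Tuba4a and Mfsd14b were shared. The 5 highest strains of each were 23, 28, 38, 40 and 42, which are also the 5 arrays least like the others. Gadl1 read between 0.76 and 1.13 in the 4 strains that stood apart, Tuba4a between 0.09 and 0.30, and Mfsd14b between 0.97 and 1.27. Of the 5 highest strains of Chrna4, 3 belonged to these arrays, and of Bid 2. Bid read between -2.04 and 0.96 in the 4 strains that stood apart. Over the 31 strains, r with the median likeness of the array was -0.88 for Chrna4, -0.70 for Mfsd14b, -0.59 for Gadl1, -0.54 for Tuba4a and -0.09 for Bid, which describes these arrays and carries no p. The part of the arrays in the members' spread was not tested.

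**Figure D3:**
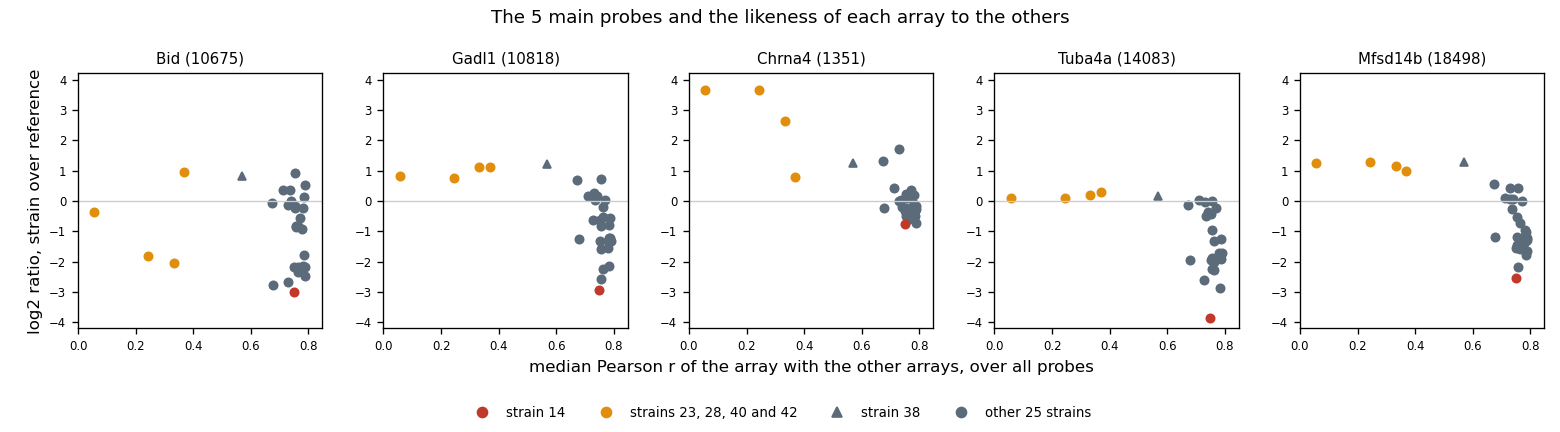
Log2 ratio of each main probe (vertical axis) against the median Pearson r of the array with the others (horizontal axis), 1 point per strain. The 4 orange arrays, between 0.06 and 0.37, and strain 38, the triangle at 0.57, are high for Gadl1, Chrna4, Tuba4a and Mfsd14b, and strain 14, in red at 0.75, lies among the remaining arrays.

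The mutual correlation was measured over 26 strains, without strains 14, 23, 28, 40 and 42. Strain 14 was left out because its low values helped to choose the members. The 26 strains also entered the SD that chose the members, so p-values between members do not allow for that part of the choice. Whether other probes with such large SDs, which share these arrays, vary together as closely was not tested. The main probes of Gadl1, Chrna4, Tuba4a and Mfsd14b varied together: Pearson r of their 6 pairs lay between 0.62 and 0.88. The second probes of Chrna4 and Tuba4a did not share this. Their r with these main probes ran from -0.70 (Chrna4 with Mfsd14b) to -0.16 (Tuba4a with Gadl1). The closest pair was Gadl1 and Mfsd14b (r = 0.88, Spearman rho = 0.82), followed by Gadl1 and Tuba4a (r = 0.83, rho = 0.77) and by Tuba4a and Mfsd14b (r = 0.81, rho = 0.80). Each of these r had a two-sided permutation p of 1e-05, the smallest that 100000 permutations can give, and 10 pairs of main probes were computed in all. Chrna4 followed Mfsd14b with r = 0.77 (rho = 0.75), Tuba4a with 0.69 (rho = 0.68) and Gadl1 with 0.62 (rho = 0.53). Without the 2 strains farthest from the median of the first gene of a pair, the 6 values lay between 0.55 and 0.83.

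Every probe was fitted on the values of a main probe (limma, slope, two-sided, Benjamini-Hochberg over 21764 probes). The main probes of these 4 genes passed in each other's fits in both directions. Adjusted p was 6.12e-07 for Mfsd14b in the fit on Gadl1 and 2.48e-05 for Tuba4a in that fit, and the weakest of the 12 was 0.0138, for Chrna4 on Gadl1. On ranks across strains 8 of the 12 passed, the 4 that did not being those between Chrna4 and Gadl1 or Tuba4a. Over all probes, 3.39% varied with Gadl1, 5.85% with Chrna4, 3.86% with Tuba4a and 10.3% with Mfsd14b. Among all other probes, Mfsd14b ranked 3rd by r with Gadl1 and Tuba4a 14th, while Chrna4 ranked 388th.

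Bid had the lower values of the 10 pairs. Its r was 0.59 with Tuba4a (permutation p = 0.0023), 0.50 with Chrna4 (0.00759), 0.41 with Mfsd14b (0.0389) and 0.32 with Gadl1 (0.112). Of the 26 strains, 9 lay under the gap of Bid described above and 17 over it. The medians under and over it were -1.94 and -0.51 for Tuba4a and -1.22 and -0.54 for Gadl1. They were -1.21 and -0.52 for Mfsd14b and -0.33 and 0.04 for Chrna4. The main probes of these 4 genes were therefore lower at the median where Bid was low. Among the 9 strains with low Bid, r was 0.42 with Tuba4a, -0.20 with Gadl1, -0.26 with Mfsd14b and -0.29 with Chrna4, and among the 17 others it lay between 0.26 and 0.31. None of these 8 values within a side passed the permutation test, the smallest p being 0.22, but each side holds few strains and a narrower range of Bid, so this does not show that the pooled values are void. In limma, 24 probes varied with Bid, 0.110% of all, with 1425 at an unadjusted p of under 0.05, and no other member was among the 24 (the smallest adjusted p was 0.18, for Tuba4a). Bid did pass in the fit on Tuba4a (adjusted p = 0.0226 in limma), but not on ranks (0.0914) or with the first principal component of the other probes as a covariate (0.203).

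With the left-out strains restored, r among the group of 4 lay between 0.67 and 0.92. It was 0.92 for Gadl1 with Mfsd14b, 0.89 for Gadl1 with Tuba4a and 0.88 for Tuba4a with Mfsd14b. Bid with Chrna4 had 0.18 over the 31 strains and 0.14 without strain 14 alone, against 0.50 over the 26. In strains 23 and 42 Bid was low, at -1.80 and -2.04, and Chrna4 high, at 3.65 and 2.62. No p is given for these r over 31 strains, because strain 14 chose the members.

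**Figure D4:**
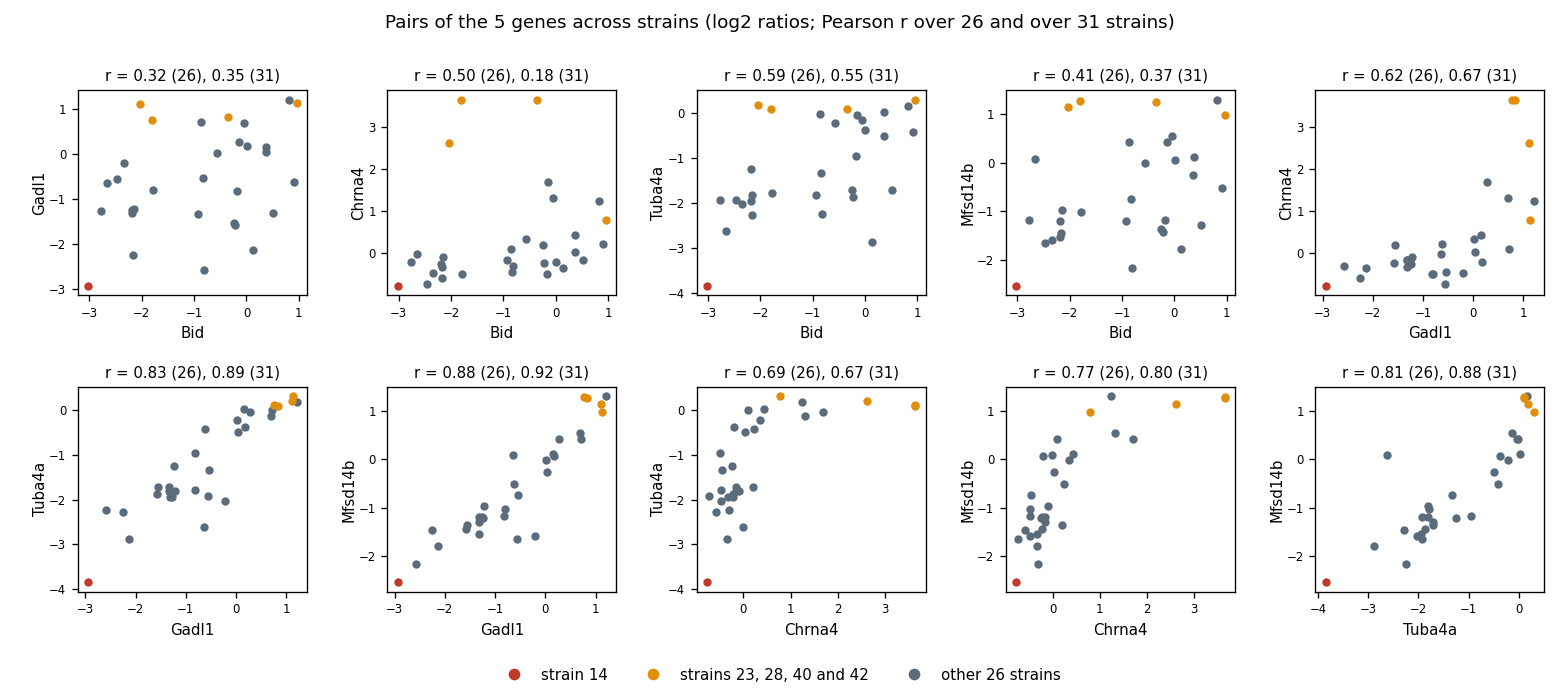
Each panel plots the main probes of 2 genes against each other (log2 ratios), with Pearson r over 26 and over 31 strains in its title. Gadl1, Tuba4a and Mfsd14b run along 1 diagonal from strain 14 in red to the 4 orange strains, and Chrna4 bends upwards in strains 23, 40 and 42.

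The values that moved with this group were measured too. The first principal component of the other probes in the 26 strains took up 18.3% of the variance, was highest in strain 38, and had r = -0.77 with the likeness of the array to the others. Its r was 0.78 with Mfsd14b, 0.69 with Chrna4, 0.67 with Tuba4a, 0.63 with Gadl1 and 0.29 with Bid. With the component as a covariate, an alternative chosen after seeing the data, the 6 pairs lay between 0.33 and 0.80, and Gadl1 with Chrna4 no longer passed (r = 0.33, permutation p = 0.098). Gadl1 with Mfsd14b kept 0.80 and Gadl1 with Tuba4a 0.71. Bid with Tuba4a had 0.56 (permutation p = 0.00282) and Bid with Chrna4 0.44 (permutation p = 0.0239). Of the 12 limma calls within the group of 4, 4 passed with the component: Mfsd14b and Tuba4a in the fit on Gadl1 (adjusted p = 0.000833 and 0.0256) and Gadl1 in the fits on Mfsd14b and Tuba4a (0.00156 and 0.0143). No call of Chrna4 with another gene remained, and Tuba4a with Mfsd14b had 0.0758 and 0.0778. The counts of varying probes were then 18 with Gadl1, 166 with Chrna4, 37 with Tuba4a, 45 with Mfsd14b and 9 with Bid.

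The second probe of Chrna4 had an SD of 0.25 across the 31 strains and read 0.31 in strain 14, near the middle of its range of -0.08 to 0.78. Over the 26 strains it ran against the group, with r = -0.60 with the main probe of its own gene, -0.70 with Mfsd14b, -0.58 with Tuba4a and -0.56 with Gadl1. It passed as a negative slope in the fits on Mfsd14b (adjusted p = 0.00234 in limma), Chrna4 (0.0221) and Tuba4a (0.0435), and had 0.0579 on Gadl1. These 3 calls did not hold throughout. With the first principal component, with which this probe had r = -0.79, adjusted p in limma was 0.793 on Mfsd14b, 0.939 on Chrna4 and 0.964 on Tuba4a. On ranks over the 26 strains, adjusted p was 0.0127, 0.0702 and 0.0983 in the same order. Over all 31 strains r was weaker, at -0.39 with Mfsd14b, -0.16 with the main probe of Chrna4 and -0.34 with Tuba4a. These r carry no p, because strain 14 chose the members. The second probe of Tuba4a had an SD of 0.31, read 0.79 in strain 14 and had r = -0.23 with the main probe of its gene (adjusted p = 0.50 in limma). The platform annotation ties both second probes to RefSeq transcripts of the genes and the main probes of Chrna4 and Tuba4a, like those of Gadl1 and Mfsd14b, to other sequence records. Which transcript each probe measured was not analysed here.

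**Figure D5:**
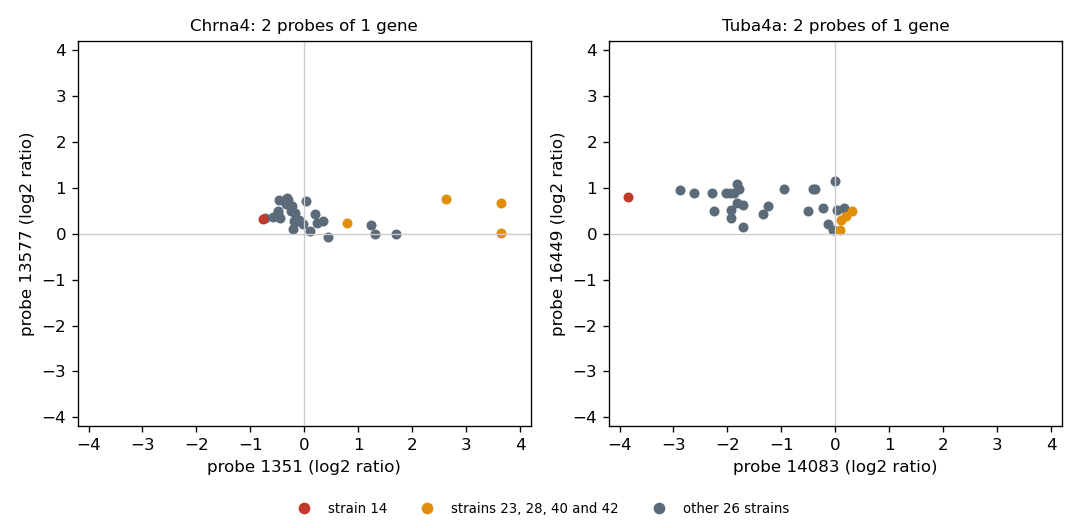
Main probe (horizontal axis) against second probe (vertical axis) of Chrna4 and of Tuba4a, log2 ratios on equal scales, 1 point per strain. The main probes span from -0.77 to 3.65 and from -3.84 to 0.30, while the second probes stay between -0.08 and 0.78 and between 0.08 and 1.15.

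Against the C57BL/6J reference, 4 of the 5 main probes had a panel mean that differed from 0 in limma, each of them lower: Tuba4a at -1.19 ± 0.20 (SE over 31 strains), Bid at -0.93 ± 0.22, Gadl1 at -0.57 ± 0.20 and Mfsd14b at -0.57 ± 0.20. These means include strain 14, whose low value chose the probes. Without it the mean was -1.10 for Tuba4a (adjusted p = 6.53e-07 in limma), -0.86 for Bid (0.00029), -0.49 for Gadl1 (0.0149) and -0.50 for Mfsd14b (0.0124). Below 0 were 25 strains for Tuba4a, 23 for Bid, 20 for Mfsd14b and 19 for Gadl1. Both second probes were higher than the reference, Tuba4a at 0.64 ± 0.06 (adjusted p = 6.81e-13, 31 strains above 0) and Chrna4 at 0.37 ± 0.04 (adjusted p = 3.64e-09, 30 strains above 0). The 2 probes of Tuba4a therefore gave opposite directions. The main probe of Chrna4 averaged 0.32 ± 0.21 and did not pass (adjusted p = 0.133), and without the 4 strains that stood apart its mean was -0.027. Over all probes, 37.4% were called higher and 37.6% lower, so a difference from the reference was common. Because dyes were not exchanged, an effect of the dyes on these means cannot be told apart from a difference of the strains.

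By the naming rule, the genes most like each member over the 26 strains were given by r. Tuba4a was followed by the sulfotransferase gene Sult1c2 (r = 0.93), Eef1akmt2 (0.93) and Scel (0.91). Eef1akmt2 was also first for Mfsd14b (0.91), before the ubiquitin-conjugating enzyme gene Ube2g1 (0.90), and for Gadl1 (0.89), before Mfsd14b and Pik3ip1 (0.86), an inhibitor of PI3 kinase. Chrna4 was most like the cytoplasmic actin gene Actb (0.91), Coq8a (0.91), which serves coenzyme Q synthesis, and the synaptotagmin gene Syt7 (0.90). Bid was most like the myotubularin gene Mtm1 (0.83), Sapcd2 (0.80) and Barx1 (0.79), a homeobox gene. In size these 3 differed from Bid: the SD over the 31 strains was 0.15, 0.65 and 0.33 in this order, against 1.22 for Bid. The second probe of Tuba4a was most like another alpha-tubulin, Tuba1c (0.75), and that of Chrna4 most like Ttc3 (0.83), both named after their values were seen.

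Genes that neighbour the members on the chromosome were compared next. Among the 3 genes on each side of a member, r over the 26 strains had a median of 0.06 for Bid, -0.01 for Gadl1, 0.07 for Chrna4, -0.22 for Tuba4a and -0.11 for Mfsd14b. The highest values were 0.60 for a probe of Eef1a2 beside Chrna4 and 0.50 for a probe of Stt3b beside Gadl1. In strain 14 the lowest of these neighbours was Bcl2l13, another BCL2 family gene, next to Bid, at -0.67. These 3 neighbours were named after their values were seen.

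The pathway partners of Bid had a list median near 0 in strain 14. Of 42 genes of the BCL2 family and of caspase apoptosis, Bid included, 36 others were measured, by 39 probes, with a median strain 14 difference of 0.00 and a range of -0.53 to 0.50. The executioner caspase Casp6 was at -0.53 and the death receptor Fas at -0.47, its probe being the 1 of the 39 that was lowest in strain 14. Of all probes 2.16% were lowest in strain 14, the background for the 4 lists that follow as well. The BH3-only gene Bcl2l11 was at -0.46, and Cflar, which restrains caspase activation at the receptor, at 0.50. Against the reference, 16 of the 39 probes were called higher and 11 lower in limma, where 37.4% of all probes were called higher and 37.6% lower, the background for the 4 lists that follow as well. They included Bcl2a1a, a survival member, at -1.62 ± 0.07 (31 strains below 0) and the apoptosome gene Apaf1 at -1.28 ± 0.12 (28 strains below 0).

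For Gadl1, the list held 25 genes of taurine, beta-alanine and carnosine metabolism, itself included, of which 15 others were measured, by 17 probes, with a median strain 14 difference of -0.08. The aspartate transaminases Got2 and Got1 were at -0.58 and -0.40, Got2 being lowest in strain 14, and the enzymes of pyrimidine and GABA breakdown Dpys and Abat were at -0.33 and -0.31. Against the reference, 6 probes were called higher and 9 lower, with the bile acid conjugating enzyme Baat at -0.92 ± 0.09 and the glutamate decarboxylase Gad2 at -0.66 ± 0.07. Abat was the 1 of 17 list probes that varied with Gadl1, where 3.39% of all probes did (r = 0.65, adjusted p = 0.013 in limma).

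For Chrna4, the list held 26 genes of nicotinic receptors and cholinergic partners, itself included, of which 20 others were measured, by 22 probes, with a median strain 14 difference of 0.03 and none lowest in strain 14. The vesicular acetylcholine transporter Slc18a3 was at 0.61, the receptor subunit Chrna7 at 0.45, the esterase Bche at -0.34 and the receptor-clustering protein Rapsn at 0.28. Against the reference 9 probes were called higher and 6 lower, with Bche at -1.28 ± 0.10 and the receptor subunit Chrng at 0.53 ± 0.05. Slc5a7, the choline transporter of cholinergic neurons, was named after its values were seen: it varied with Chrna4 (r = 0.75), Tuba4a (0.72), Mfsd14b (0.71) and Gadl1 (0.69), with adjusted p up to 0.004 in limma. Of the 22 list probes, 1 varied positively and 1 negatively with Chrna4, where 5.85% of all probes varied with it. These counts were 1 and 2 with Tuba4a (3.86% of all probes), 2 and 1 with Mfsd14b (10.3%) and 1 and 0 with Gadl1 (3.39%). The list's median r was -0.16 with Chrna4, -0.13 with Tuba4a, -0.23 with Mfsd14b and -0.21 with Gadl1.

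For Tuba4a, the list held 32 genes of tubulins and tubulin cofactors, itself included, of which 26 others were measured, by 28 probes, with a median strain 14 difference of -0.01 and none lowest in strain 14. The alpha-tubulin Tuba8 was at 0.41, the deglutamylase Agtpbp1 at -0.35, the tyrosine ligase Ttl at 0.34 and the folding cofactor Tbca at -0.32. Against the reference 8 probes were called higher and 8 lower, with Agtpbp1 at -0.83 ± 0.07 and Svbp, partner of the vasohibins, at -0.75 ± 0.05. Over the 26 strains 3 of the 28 list probes varied with the main probe of Tuba4a, where 3.86% of all probes did, each with a negative slope. These were the beta-tubulins Tubb4b (r = -0.65, adjusted p = 0.017) and Tubb5 (r = -0.64, adjusted p = 0.021) and the cofactor Tbcc (r = -0.60, adjusted p = 0.040), all in limma and named after their values were seen. This was not particular to Tuba4a: the list also had 3 negative calls with Chrna4 (5.85% of all probes) and 3 with Mfsd14b (10.3%). It had 0 with Gadl1 (3.39%). The list's median r was -0.15 with Tuba4a, -0.22 with Chrna4, -0.12 with Mfsd14b and -0.17 with Gadl1.

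For Mfsd14b, the list held 39 symbols of MFSD and related transporters, older symbols and its own included, of which 21 others were measured, by 21 probes, with a median strain 14 difference of 0.01 and none lowest in strain 14. The sphingosine phosphate transporter Spns2 was at -0.47, the synaptic vesicle protein Sv2a at 0.47, Slc46a3 at -0.40 and the lysophospholipid transporter Mfsd2a at -0.33. Against the reference 11 probes were called higher and 6 lower, with the lysosomal transporter Spns1 at -0.79 ± 0.12 and the folate transporter Slc46a1 at 0.66 ± 0.04.

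Markers of cell types that a liver sample could hold had list medians near 0 in strain 14. Over 11 lists, from 4 erythrocyte probes to 17 lymphocyte probes, the median strain 14 difference lay between -0.12 (erythrocyte) and 0.08 (exocrine pancreas), no probe was lowest in strain 14 and none reached -1. Over all probes, 2.16% were lowest in strain 14 and 0.377% reached -1, so finding none in lists of this size lies near those shares. Single markers reached further: the hepatocyte list ran from -0.59 to 0.98 (Cps1, an enzyme of the urea cycle), the stellate cell and endothelium list from -0.45 to 0.85 (Pecam1, an endothelial adhesion molecule) and the exocrine pancreas list from -0.38 to 0.84 (Cpb1, a carboxypeptidase), these 3 genes being named after their values were seen. By the mean of a list, strain 14 was 29th of the 31 strains from the lowest for kidney proximal tubule and 25th for exocrine pancreas. Their part in the results was not tested. The list median was -0.02 for the neuronal markers, -0.06 for skeletal muscle, 0.01 for platelets and megakaryocytes and -0.01 for hepatocytes. The values are ratios to another liver RNA, so they do not show how much of a cell type a sample held, and in bulk RNA fewer cells of a type and less RNA per cell cannot be told apart.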

How the data were processed

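Log ratios of 31 arrays were deposited by the authors as normalized values, and the submitters' processing notes name limma and R 2.0.0. They were read here as log2 values. No source used here states how background was corrected or how arrays were normalized. The deposited values had the same distribution on every array, so each is set by a rank. Of 23040 features, 1275 were empty on every array and 21765 were used. The platform annotation gave 1 gene for 16642 of these, several for 134 and none for 4989, and current symbols came from RefSeq (GRCm38.p6) through the gene IDs.

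The panel mean (intercept) and the variation of every probe with a main probe over 26 strains (slope) were tested with limma 3.58.1 in R 4.3.3 (lmFit with eBayes, both tests two-sided, threshold 0.05 after Benjamini-Hochberg adjustment over all probes). The panel mean leaves out the reference's own spread. Pearson r and Spearman rho between main probes had two-sided permutation tests (100000 resamples). Alternatives in the place of a probe on the array, the strains used and the measure were set against these fits. Intensities were not used, signal over background is therefore unknown, and precision is limited by the number of arrays. With 1 array per strain, p-values measure the spread between arrays, in which strain, pool and array cannot be told apart.

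The named genes are every probe of the members, the 3 probes with a usable symbol most like each, the 8 other such probes with the most negative strain 14 difference, the next such probe by SD that was lowest in strain 14 and, of each gene list, up to 4 genes by strain 14 difference and 2 by panel mean. Genes outside the rule are said to have been named later. The members and lists were chosen with earlier results of these data known.

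Both limma fits were tested on simulated data with fixed seeds before use. The slope fit on Gadl1 called 4 of 50 probes set to an r of 0.5, 36 of 50 at 0.7 and 50 of 50 at 0.9. The fit of the mean called 29 of 50 at 0.2 and 50 of 50 at 0.5. Simulated probes were drawn independently of each other, so variation shared between real probes is not covered.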

Additional observations from a re-analysis of the deposited data

How the results depend on the processing

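Strain 14 differences were recomputed with the median taken without the 4 strains that stood apart. They were then -2.13 for the main probe of Tuba4a, -2.21 for Gadl1, -2.33 for Bid, -1.44 for Mfsd14b and -0.59 for the main probe of Chrna4. With the correction for place on the array they were -2.58, -2.36, -2.35, -1.69 and -0.63 in the same order. Centring could change none of them, because all arrays had the same median. Of 58 recomputed pair correlations that carry a p, 48 kept their side of the threshold. Among these 48, Bid with Gadl1 reversed under the gap of Bid, from 0.32 to -0.20, and passed in neither. Leaving out strains at the limit of the array removed none of the 26 and is not counted. Over all 31 strains r was 0.89 for Gadl1 with Tuba4a, 0.92 for Gadl1 with Mfsd14b, 0.88 for Tuba4a with Mfsd14b and 0.18 for Bid with Chrna4, which had 0.14 without strain 14 alone. Within the strains under the gap of Bid, r was -0.29 with Chrna4 and -0.26 with Mfsd14b, both opposite to the pooled value, and 0.42 with Tuba4a, and over the gap it was 0.31, 0.30 and 0.28. Bid with Mfsd14b also lost its call as Spearman rho (0.38), with the first principal component (0.31) and without strain 38 (0.32), and Gadl1 with Chrna4 with the component (0.33).

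The counts of probes varying with a member depended on the strains and the measure. With all 31 strains the counts are a description, because strain 14 chose the members. They were 8 for Bid, 4830 for Gadl1, 8964 for Chrna4, 3756 for Tuba4a and 7387 for Mfsd14b. Without strain 14 alone they were 1, 4379, 8732, 3493 and 7129 in the same order. On ranks they were 0 (with 1396 at an unadjusted p under 0.05), 140, 92, 214 and 1435, and with the component 9, 18, 166, 37 and 45. The place correction kept each count within 1.5 times.

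The count of probes whose panel mean differed was 16325 and dropped to 7229 when tested beyond 0.2, where Gadl1 (-0.57, adjusted p = 0.084 in limma) and Mfsd14b (-0.57, adjusted p = 0.078) no longer passed. The mean of the main probe of Chrna4 turned to -0.027 without the 4 strains that stood apart and to -0.0011 with robust regression, and it passed in neither. The causes of these changes were not tested, beyond the strains or the covariate that each alternative names. No paired analysis was possible because the strains form 1 group with 1 array each. Signal over background, which would limit dim probes, is not known here.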

Other observations

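Other genes were low in strain 14 beside the members. By the naming rule these were Scel (strain 14 difference -2.10), the immune membrane gene Ms4a6c (-1.90), Sult1c2 (-1.79), Rassf7 (-1.66), Praf2 (-1.61), the mitochondrial ribosomal protein gene Mrps18a (-1.58), the threonyl-tRNA synthetase gene Tars (-1.58) and the cell polarity gene Llgl2 (-1.57). Strain 14 held the lowest value of the 31 strains for 7 of these 8, and not for Tars. Most of them also followed Tuba4a in strains other than 14. Over the 26 strains, r with Tuba4a was 0.93 for Sult1c2, 0.91 for Scel, 0.77 for Llgl2, 0.76 for Ms4a6c and Rassf7, 0.69 for Mrps18a and 0.57 for Tars. Praf2 differed, with r = 0.25 with Tuba4a and 0.04 with Bid, and an SD of 0.36. Mrps18a was the one of the 8 with the highest r with Bid, 0.77, followed by Sult1c2 and Scel at 0.52 and Rassf7 at 0.50. Llgl2, Tars and Ms4a6c had 0.38, 0.35 and 0.33 with Bid.

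Of the 81 other probes at least 1 below the median in strain 14, 55 had r of at least 0.5 with Tuba4a over the 26 strains, 67.9%, against 4.31% of all probes. The share was 64.2% with Gadl1 (4.83% of all probes), 65.4% with Mfsd14b (6.73%) and 30.9% with Bid (0.988%), and 65.9% of 82 probes with Chrna4 (4.92%). These probes have larger SDs than most and share arrays, so the shares are a description with no test.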
